A study of Mus musculus with 47 samples.

Results

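The genes that drive cells through mitosis, with the D-type cyclins and CDKs of G1, were followed in P19 cells before and after neuronal differentiation. The group was a list of 42 genes for cyclins, CDKs, spindle proteins and kinetochore proteins, and its members were the 3′ UTRs whose RefSeq mRNA name maps to 1 of these symbols. All 42 genes were found, with 66 transcripts, among 18854 genes and 28190 mRNA transcripts. The transcript with the most reads over all libraries stood for each gene. P19 is a mouse embryonal carcinoma line, wild type by the labels, which turns into neurons when it is given retinoic acid. Undifferentiated cells (D0) were compared with cells after 6 days in NDiff 227 medium with 500 nM retinoic acid (D6). RNA was measured by SLAM-seq, in which cells build 4-thiouridine (4sU) into new RNA and the labeled positions are read as T>C conversions. In the catabolic assay, cells were labeled for 15 h (the study also states a slightly shorter time in one place) and the loss of label was followed after its removal, and in the anabolic assay the uptake of label was followed. D0 cells received 20 µM and D6 cells 500 µM 4sU, so that state and dose cannot be told apart in labeled libraries. The first anabolic time point had no 4sU in either state. Time points are given here as 0, 3, 6 and 9 h, as in the methods of the study, whereas the sample labels give 0, 1, 3 and 9 h. There were 3 libraries for every combination of state, assay and time, which the design text calls biological replicates, except the third catabolic point at D6, with 2.

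Entry into the cell cycle is driven by D-type cyclins, which activate Cdk4 and Cdk6, and is opposed by CDK inhibitors such as the product of Cdkn1b. Entry into mitosis is driven by Cdk1 with cyclins A and B, and exit by the anaphase-promoting complex (APC/C), which marks these cyclins for destruction. The mRNAs of most mitotic genes are made in G2 and M phase, so that their level in a population falls when fewer cells divide, and neurons have left the cell cycle. In bulk RNA, fewer dividing cells and less RNA per dividing cell cannot be told apart.

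Between 3447888 and 11677046 reads (median 7154291) lay on 3′ UTRs in the 24 D0 libraries and between 1489528 and 7930149 (median 3715703) in the 23 D6 libraries. These were 30.3% to 47.4% of mapped reads at D0 and 15.6% to 33.5% at D6, so this share also differed with state. The shallowest group was the third catabolic point at D6, with 1489528 and 1966286 reads, where the log2 reads of the replicates correlated across genes with an r of 0.668. Levels are given as CPM, which are reads scaled to the TMM-adjusted size of the library. In libraries without 4sU, 8 embryonal carcinoma markers summed to 1051 to 1642 CPM at D0 and to 6.77 to 8.10 CPM at D6, although Zfp42 and Dppa5a were at 0 in both states and Fgf4 was at 0 at D0. The sum of 8 neuron markers was 707 to 798 CPM at D0 and 10764 to 11828 CPM at D6. Over 6 neural progenitor markers, it was 584 to 1203 CPM at D0 and 2649.9 to 2915 CPM at D6, carried by Hes5 and Vim, whereas the mean of Pax6 was 25.5 CPM at D0 and 23.1 CPM at D6 and that of Nes 50.6 and 68.9 CPM. Over 5 mesoderm and fibroblast markers it was 145 to 169 CPM at D0 and 1.43 to 10.9 CPM at D6. The 6 glia markers summed to at most 70.01 CPM, with Aqp4, Aldh1l1 and Olig2 at 0, and the 4 endoderm markers to at most 8.81 CPM, with Gata4, Sox17 and Afp at 0. The part of the change in cell types in the results given next was not tested.

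Promoters of mitotic genes are known for the cell cycle genes homology region (CHR), a TTTGAA element bound by MuvB complexes, and for CCAAT boxes bound by NF-Y. RefSeq promoter windows (GRCm38.p6, 250 bases before to 50 after the start) were matched for 34 of the 42 genes. Those of Ccnd1, Ccnd2, Ccna2, Cdc25c, Aurkb, Tpx2, Incenp and Kif20a were not matched. The letters TTTGAA were found on either strand in the windows of 21 of the 34 genes, against 20.2% of 27025 symbols with a window (17.9% of all 32851 windows). The letters CCAAT were found on either strand for 26 of the 34 genes, against 41.1% of symbols (37.4% of all windows), and neither motif holds the other. The sites of 7 genes whose reads are described next are shown 5′ to 3′ on the strand of the gene, with TTTGAA in capitals, with 1 site per gene. Further sites, not shown, begin at position -71 for Cdk1, -167 for Ccnb2 and -116 for Mki67, and on the opposite strand at -23 for Top2a.
Plk1, chr7:122159453-122159482, plus strand, motif at position 30 from the start: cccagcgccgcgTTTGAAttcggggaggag
Aurka, chr2:172370521-172370550, minus strand, position 32: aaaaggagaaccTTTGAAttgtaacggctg
Cdc20, chr4:118437344-118437373, minus strand, position -18: agacagttgggtTTTGAAggagccaatgaa
Cdk1, chr10:69352910-69352939, minus strand, position -15: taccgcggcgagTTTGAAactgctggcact
Ccnb2, chr9:70421533-70421562, minus strand, position 4: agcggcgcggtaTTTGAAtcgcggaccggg
Top2a, chr11:99024351-99024380, minus strand, position -179: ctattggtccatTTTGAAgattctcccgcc
Mki67, chr7:135716460-135716489, minus strand, position -98: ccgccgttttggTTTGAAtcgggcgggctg
By role, TTTGAA was present in all 7 matched genes for spindle motors and cytokinesis and in none of the 5 matched genes of G1. It was also absent from the windows of Ccnb1 and Birc5. A match is a description of letters and not a site of binding.

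The D-type cyclins did not move together. Ccnd1 and the CDK inhibitor gene Cdkn1b rose from D0 to D6, whereas Ccnd2, Ccnd3 and Cdk6, the partner kinase of the D-type cyclins, fell. In the libraries without 4sU, given as replicates 55, 56 and 57 at D0 and replicates 37, 38 and 39 at D6, Ccnd1 (3′ UTR at chr7:144929931-144932606 of mm10, minus strand) had 150.1, 107 and 180.4 CPM at D0 and 331, 300.3 and 376 CPM at D6. All D6 libraries lay above all D0 libraries, a 2.30-fold rise (standard error 0.331 on the log2 scale, adjusted p = 0.0101 by edgeR's quasi-likelihood test with Benjamini-Hochberg adjustment over 13253 genes). Without D0 replicate 56, the lowest of the 3, the adjusted p was 0.0866. Cdkn1b (chr6:134922075-134925525, plus strand), whose product holds cyclin-CDK complexes inactive, had 108, 106 and 196 CPM at D0 and 374, 282 and 582 CPM at D6. The groups did not overlap, with a log2 change of 1.59 (standard error 0.381, adjusted p = 0.00245).

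Ccnd2 (chr6:127125708-127130334, minus strand) had 1432, 2276 and 1462 CPM at D0 and 629, 976 and 606 CPM at D6. Every D6 library was below every D0 library, and replicate 56 at D0 and replicate 38 at D6 were the highest of their groups, a log2 change of -1.23 (standard error 0.25, adjusted p = 0.000287). For Ccnd3 (chr17:47598777-47599689, plus strand) the levels were 477, 838 and 545 CPM at D0 and 87.6, 159 and 122 CPM at D6. The gap between the groups was wider here, with a log2 change of -2.34 (standard error 0.545, adjusted p = 0.00181). The 3′ UTR of Ccnd3 overlaps that of Bysl on the opposite strand, and whether the counting used strand is not given in the sources used here. Cdk6 (chr5:3520792-3531008, plus strand, a 3′ UTR of 10217 bases) had 263, 296 and 275 CPM at D0 and 13.8, 54.5 and 34.1 CPM at D6. It showed the largest fall of the 42 genes past the threshold, with a log2 change of -3.03 (standard error 0.635, adjusted p = 0.000434). Cdk4, the other partner of the D-type cyclins, had a log2 change of -0.46 (adjusted p = 0.466), and Cdk2, the partner of E-type cyclins, one of -0.76 (adjusted p = 0.592), neither past the threshold.

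**Figure D1:**
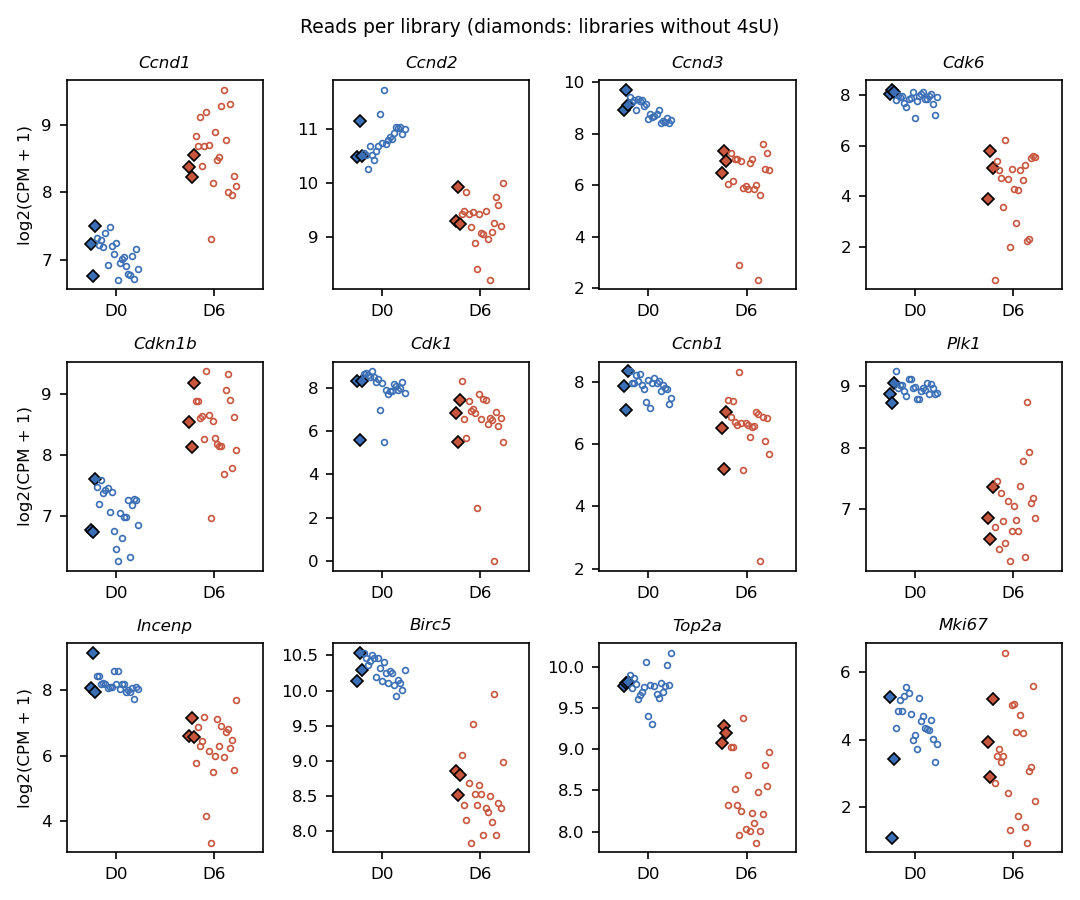
Reads of 12 genes in each of the 24 D0 and 23 D6 libraries, on a log2(CPM + 1) scale that differs between panels, with libraries in group order from left to right within a state and diamonds for those without 4sU. Ccnd1 and Cdkn1b are higher at D6, Ccnd2, Ccnd3, Cdk6 and Incenp have all D6 libraries below all D0 libraries, and Mki67 overlaps.

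Of the kinases and of the chromosomal passenger complex, which corrects faulty attachments of chromosomes to the spindle, 3 of 6 genes fell without 4sU, where 3.91% of all genes did. Plk1 (chr7:122169591-122169884, plus strand), a kinase of mitotic entry and spindle assembly, had 466, 419.6 and 530.2 CPM at D0 and 115, 90.3 and 163 CPM at D6. These groups lay far apart, at a log2 change of -1.94 (standard error 0.326, adjusted p = 1.04e-05). Birc5 (chr11:117852808-117855743, plus strand), which encodes the passenger protein survivin, had 1119.6, 1489 and 1249.5 CPM at D0 and 463, 366 and 444 CPM at D6. Its groups did not overlap either, with a log2 change of -1.60 (standard error 0.293, adjusted p = 5.19e-05). Incenp (chr19:9872297-9872676, minus strand), the scaffold of the complex, had 267, 564 and 245 CPM at D0 and 96.4, 140.3 and 94.4 CPM at D6. Its log2 change was -1.70 (standard error 0.498, adjusted p = 0.0175), and the adjusted p reached 0.184 when single libraries were left out. The Aurora kinase gene Aurka had 262, 215 and 252 CPM at D0 and 75.5, 108 and 146 CPM at D6, which did not overlap but did not pass the threshold (log2 change -1.15, adjusted p = 0.167).

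For the G2/M genes Ccnb1, Cdk1 and Cdc20, replicate 56 was the lowest of the D0 libraries without 4sU. It was the highest of them for Ccnd2, Ccnd3 and Incenp. In this library 31.9% of mapped reads lay on 3′ UTRs, against 41.4% in replicate 55 and 39.2% in replicate 57. Its part in the spread was not tested. Ccnb1 (chr13:100778739-100779677, minus strand), cyclin B1, had 234, 136 and 324 CPM at D0 and 90.5, 35.8 and 129.6 CPM at D6. The groups did not overlap, but the log2 change of -1.44 (standard error 0.528, adjusted p = 0.0756) did not pass. Cdk1 (chr10:69336635-69338497, minus strand), the mitotic kinase, had 312, 46.7 and 313 CPM at D0 and 111, 43.5 and 169 CPM at D6. Replicate 56 at D0 lay within the D6 range, and the log2 change was -1.05 (standard error 0.711, adjusted p = 0.408). Cdc20, which activates the APC/C, had 441.5, 373 and 430.1 CPM at D0 and 273, 284.5 and 121 CPM at D6, with a log2 change of -0.88 (adjusted p = 0.0704). Of these 9 genes for cyclins, Cdk1, CDC25 phosphatases and the APC/C, 0 passed without 4sU with edgeR and 5 had an unadjusted p under 0.05, as did 22.2% of all genes. DESeq2, which called 6.34% of all genes lower, called Ccna2, Ccnb1 and Cdc20.

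Top2a and Mki67 are the usual markers of proliferating cells, and neither passed without 4sU. Top2a (chr11:98992947-98993803, minus strand), which untangles sister chromatids, had 868, 893 and 900.3 CPM at D0 and 538, 620.3 and 586 CPM at D6. The replicates were close and the groups apart, but the log2 change of -0.61 (standard error 0.253, adjusted p = 0.129) did not pass. Mki67 (chr7:135689788-135690088, minus strand), the Ki-67 antigen, had 37.3, 1.11 and 9.79 CPM at D0 and 14.3, 6.45 and 36.2 CPM at D6. Its libraries overlapped fully, with a log2 change of 0.24 (standard error 1.21), and its 3′ UTR carried 331 reads in the 3 D0 libraries together and 310 in the 3 D6 libraries.

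Over all 42 genes, 6 fell (Cdk6, Ccnd3, Plk1, Incenp, Birc5 and Ccnd2) where 3.91% of all genes tested did, and 2 rose where 5.54% did. The change was negative for 36 of them, and its median was -0.75 against 0 over all genes tested. The 3 D6 libraries all lay below the 3 D0 libraries for 18 of the 42, against 13.9% of all genes, and all above for 2, against 14.7%. Of the genes for the spindle checkpoint (5), the kinetochore (5), and spindle motors and cytokinesis (8), 0 passed with edgeR and 1 (Kif20a) had an unadjusted p under 0.05, where 22.2% of all genes did. Their standard errors reached 2.41 on the log2 scale, for Kif20b. D0 replicate 56 had 17.1 CPM for Bub1, 18.7 for Bub1b, 12.9 for Mad2l1 and 2.89 for Anln, each below replicates 55 and 57. It was the highest of the 3 for Cenpe and Nuf2 and lay between the others for Bub3 and Ndc80.

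The same contrast could be made at 7 further combinations of assay and time, none of which share libraries. Averaged over all 8 points (24 D0 and 23 D6 libraries, an average chosen after the data had been seen), 32 of the 42 genes were lower at D6, against 28.7% of all genes, and 3 were higher, against 16.3%. The median change was -1.16, where the median over all genes was -0.40, and 34 of the 42 lay below that. Without the third catabolic point, at which the median of all genes was shifted by -0.84, 29 were lower (24.7% of all genes) and 3 higher (18.3% of all genes), with medians of -0.98 and -0.23. From the 4 anabolic points alone 22 were lower (20.7% of all genes) and from the 4 catabolic points alone 24 (23.6% of all genes). At 7 of the 8 points the D6 cells also carried the higher dose of 4sU.

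By role, all 6 genes for mitotic kinases and the passenger complex were lower in this average, with log2 changes from -1.83 for Plk1 to -0.79 for Tpx2, which brings Aurora kinase A to the spindle. The call for Aurkb (-0.94, standard error 0.387) was lost from the anabolic or the catabolic points alone and without a filter on low counts, with an adjusted p of up to 0.247. Aurka was at -1.72 (standard error 0.189) and Incenp at -1.78 (standard error 0.181). Of the 5 spindle checkpoint genes, which hold back anaphase until chromosomes are attached, 4 were lower. They ranged from -2.41 for the kinase gene Ttk, which had a D6 group at 0 reads, to -1.39 for Bub1. At the third catabolic point the D6 libraries held 2 and 3 reads for Mad2l1 and 1 and 13 for Bub1b. Under 6 alternatives Mad2l1 lay between -2.23 and -0.66, and its call was lost from the anabolic points alone. Bub1b lay between -2.31 and -1.27 and kept its call. Bub3, which also serves in transcription factor and mRNA complexes outside mitosis, was at -0.11 (standard error 0.109). Of the 5 kinetochore genes 4 were lower, led by the motor gene Cenpe at -1.70 (standard error 0.307), or -1.05 (standard error 0.305) without the third catabolic point, and Nuf2 did not pass at -0.71 (standard error 0.443). Ndc80, its partner in the complex that binds microtubules, went from 0.14 without 4sU to -1.47 in the average, and was at -0.90 and not called without the third catabolic point.

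Among the 8 genes for spindle motors and cytokinesis 6 were lower, with Kif20a at -1.41 (standard error 0.222). Anln, an actin-binding protein of the cleavage furrow, was at -2.25 (standard error 0.556). Its value lay between -2.97 and -1.52 under 6 alternatives, and the call was lost from the anabolic points alone. At the third catabolic point the D6 libraries held 1 and 0 reads for Anln. Kif4 and Prc1, which organize the central spindle, were at -0.31 and -0.28 without passing. Kif20b had the largest value, -4.06 (standard error 1.00), from a median of 1.70 CPM at D0, and 17 of the 23 D6 libraries held 0 reads. For Kif20b at 4 points and for Ttk at the third catabolic point all D6 libraries were at 0, so that these fitted values are no measure of size. Over the other 40 genes the median was -1.10. Ttk and Kif11 also did not pass without the third catabolic point (adjusted p = 0.052 and 0.0549).

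Of the 9 G2/M genes 7 were lower in the average, with Cdk1 at -1.35 (standard error 0.259), Cdc20 at -1.28 (standard error 0.116), Ccnb1 at -1.25 (standard error 0.19) and Ccnb2 at -1.14 (standard error 0.296). The 3 CDC25 phosphatase genes, which remove the inhibitory phosphates from CDKs, differed. Cdc25a was lower at -1.05 (standard error 0.177), Cdc25b was higher at 0.78 (standard error 0.164, adjusted p = 5.78e-05) and Cdc25c was at -0.10 (standard error 0.437). The change in Cdc25b was positive at all 8 points and that in Cdc25a negative at all 8. Of the 7 G1 genes, Ccnd1 (1.55, standard error 0.119) and Cdkn1b (1.48, standard error 0.136) were higher and Cdk6, Ccnd3, Ccnd2 and Cdk2 lower, and Cdk4 was at -0.01 (standard error 0.122). Top2a was lower at -1.22 (standard error 0.0924), and Mki67, at -0.61 (standard error 0.44), did not pass.

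**Figure D2:**
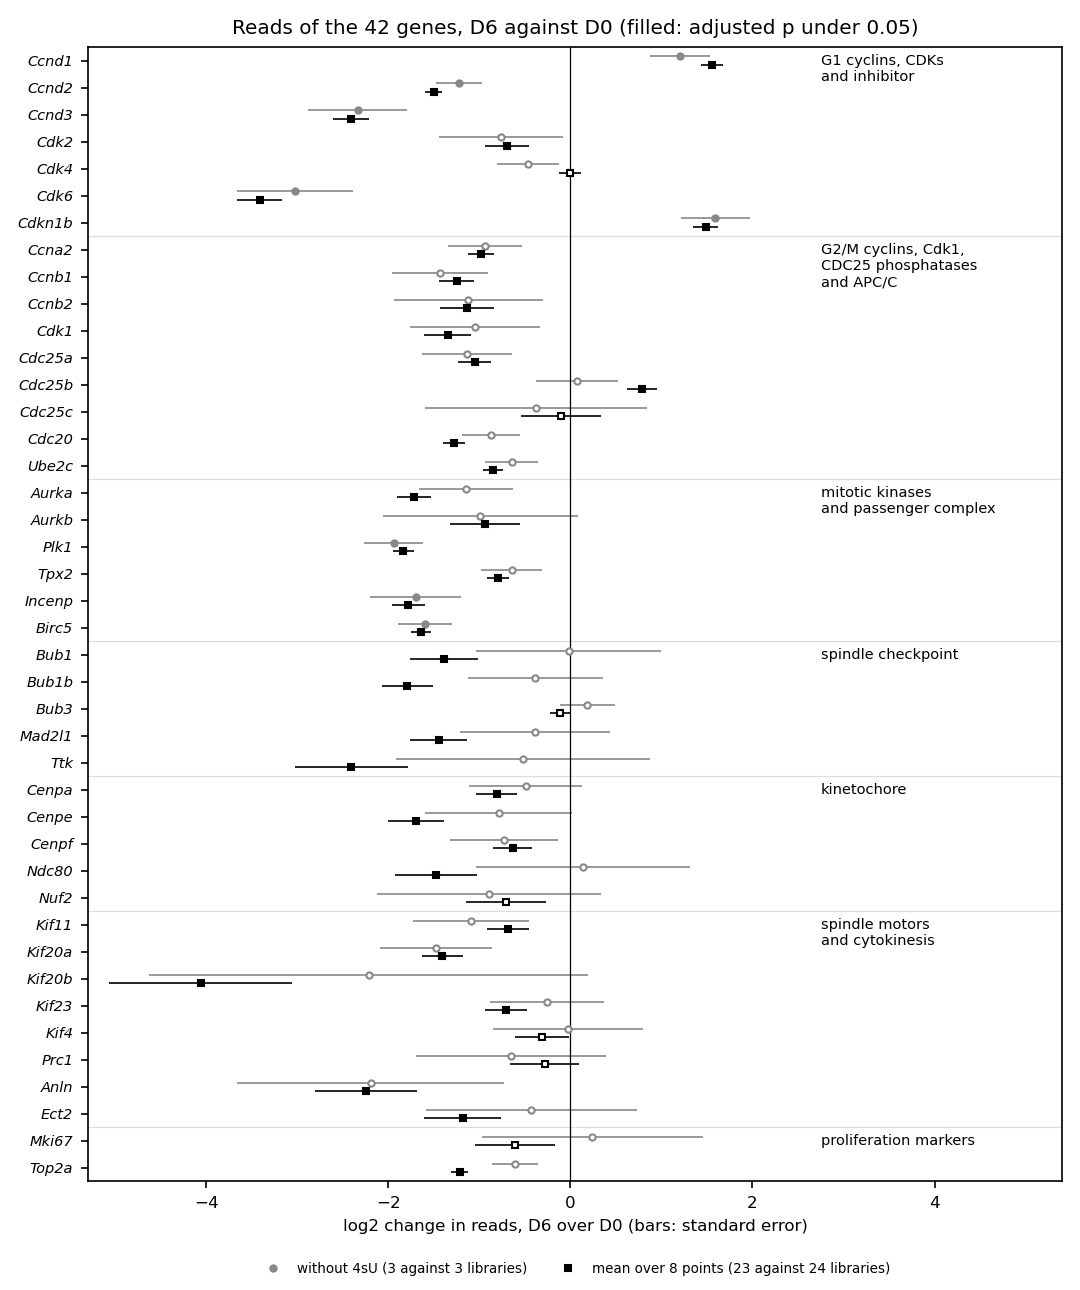
Log2 change in reads from D0 to D6 for the 42 genes, grouped by role, without 4sU (grey, 3 against 3 libraries) and averaged over 8 points (black, 23 against 24 libraries), with bars for the standard error and filled symbols for an adjusted p under 0.05. Most genes lie left of 0, and Ccnd1, Cdkn1b and Cdc25b lie right of it.

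Single points called fewer genes. At the second anabolic point 9 of the 42 genes were lower (4.93% of all genes) and 2 higher (4.99% of all genes), at the third 10 were lower (4.13% of all genes) and 2 higher (5.57% of all genes), and at the last 13 were lower (6.24% of all genes) and 1 higher (5.36% of all genes). At the first catabolic point 10 were lower (4.41% of all genes) and 2 higher (5.27% of all genes), and at the second 10 were lower (4.3% of all genes) and 2 higher (4.82% of all genes). At the third catabolic point, the shallow one, 12 were lower (12.5% of all genes) and 2 higher (6.81% of all genes), and at the last 15 were lower (4.78% of all genes) and 2 higher (5.13% of all genes). Ccnd2 and Cdk6 were lower at all 8 points, and Ccnd3, Cdc20, Aurka, Plk1, Birc5 and Top2a at 7. Incenp was lower at 6, Ube2c, the E2 enzyme of the APC/C, at 4 and Tpx2 at 3. Ccnd1 and Cdkn1b were higher at 7, with changes between 0.90 and 2.26 for Ccnd1 and between 1.06 and 2.16 for Cdkn1b. The change of Top2a at 7 labeled points, up to -1.64, was thus larger than its -0.61 without 4sU.

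**Figure D3:**
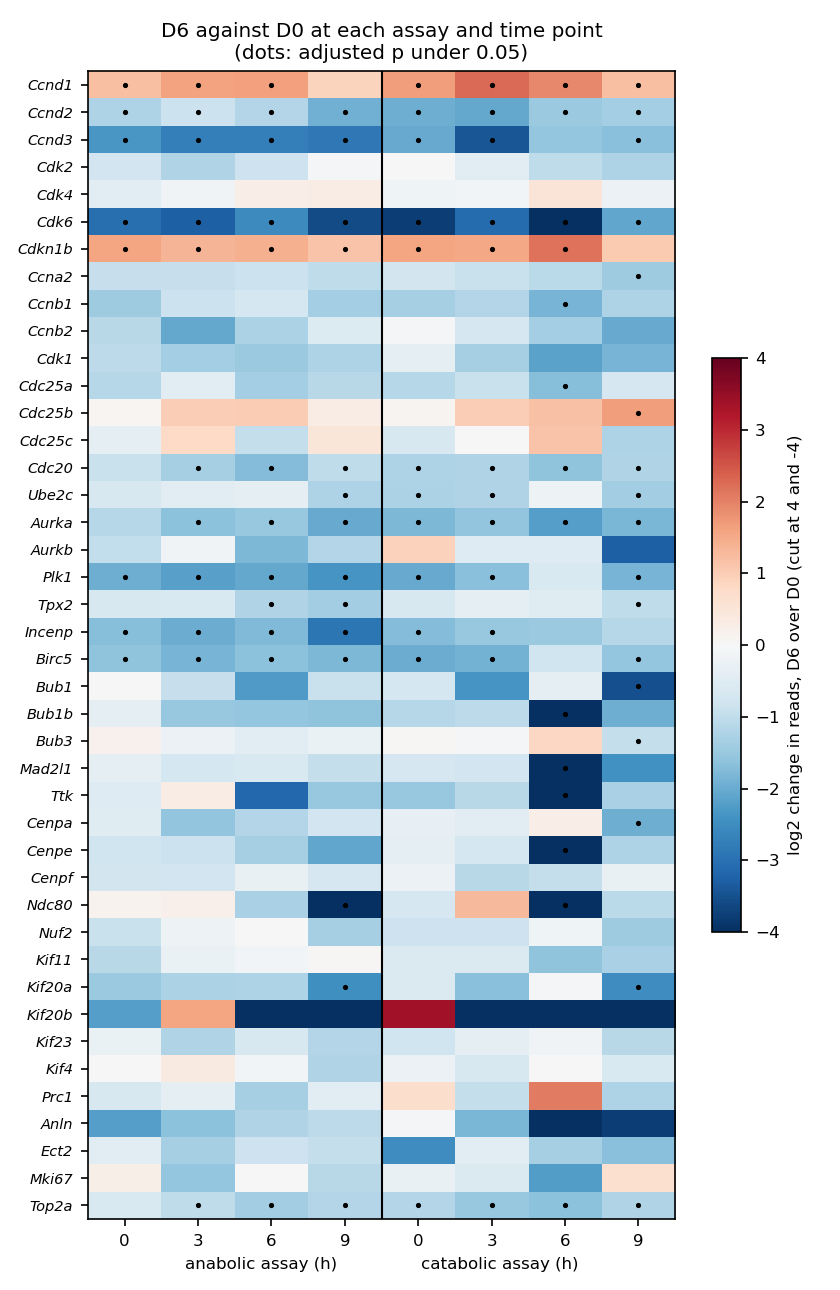
Log2 change in reads from D0 to D6 for the 42 genes at the 4 anabolic and 4 catabolic time points (hours as in the methods), with color cut at 4 and -4 and dots for an adjusted p under 0.05. Rows of Ccnd2, Ccnd3, Cdk6, Cdc20, Aurka, Plk1, Birc5 and Top2a are blue with dots at 7 or 8 points, and those of Ccnd1 and Cdkn1b are red.

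Across all libraries, labeled or not, 5 of the 42 genes (Ccnd2, Ccnd3, Cdk6, Aurka and Incenp) had each of 23 D6 libraries below each of 24 D0 libraries, against 1.75% of all genes. Ccnd2 ranged from 1224 to 3428 CPM (median 1757) at D0 and from 294 to 1030.1 CPM (median 629) at D6. Cdk6 ranged from 134 to 296 CPM (median 240.1) at D0 and from 0.626 to 74.0 CPM (median 25.2) at D6. In the upward direction 0 of the 42 genes were separated, against 1.61% of all genes, although 22 of 23 D6 libraries lay above the highest D0 library for Ccnd1 and for Cdkn1b. Plk1, Birc5 and Top2a each had 22 of 23 D6 libraries below the lowest D0 library. Cdk1 had only 4 such libraries, with 2 D0 libraries at 43.7 and 46.7 CPM and a D0 median of 289.6 CPM.

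Other cell cycle genes were taken from 5 further lists, to be read against 3.91% of all genes lower and 5.54% higher without 4sU, and 28.7% lower and 16.3% higher in the average. An unadjusted p under 0.05 was found for 22.2% of all genes without 4sU. Of 47 other mitosis genes, 4 fell without 4sU, namely Cenpw (log2 change -2.71), a histone-fold protein of the centromere, Fbxo5 (-1.70), an inhibitor of the APC/C, Cdca8 (-1.62), the passenger protein borealin, and Pttg1 (-1.32), securin. Averaged over the 8 points 31 of them were lower and 0 higher, with a median of -1.21. Of 14 genes for E2F factors, Foxm1, B-Myb and MuvB, 0 passed with edgeR without 4sU and 0 had an unadjusted p under 0.05. In the average 6 were lower, among them Mybl2 (-1.99), the partner of MuvB, and Foxm1 (-1.01), and 1 was higher, E2f2 (2.70). Of 9 CDK inhibitors and pocket proteins 0 passed without 4sU, with 1 at an unadjusted p under 0.05. In the average Cdkn1a (3.04) and Cdkn2d (0.79) were higher and Rbl1 (-1.90) and Cdkn2a (-0.65) lower. Of 13 other cyclins and CDKs tested, Cdk14 rose without 4sU (2.24), and in the average Ccng2 (3.14) and Cdk14 (1.29) were higher and Ccne1 (-2.52), Cdk12 (-1.03) and Ccnk (-0.71) lower. Of 14 APC/C subunits and Cdk1 regulators 0 passed without 4sU, with 3 at an unadjusted p under 0.05, and in the average 5 were lower, such as Anapc1 (-1.26) and Wee1 (-1.05), and 1 higher, Anapc5 (0.47).

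Calls were also counted by promoter motif, without a test of the difference. Of the 21 genes with TTTGAA, 17 were lower in the average over 8 points, with a median of -1.18, and of the 13 matched genes without it 9 were lower, with a median of -1.25. The 13 include all 5 matched G1 genes. Ccnd3, Cdk6 and Birc5, which fell without 4sU, had no TTTGAA in the window, and Plk1 had one.

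Libraries after 15 h of 4sU, from the catabolic assay, were set against those with none, from the anabolic assay. Labeling and assay thus differed together and cannot be told apart. At D0, 4 of all genes were higher (0.0302%) and 5 lower (0.0377%), and 0 of the 42 genes passed with edgeR or had an unadjusted p under 0.05, where 5.06% of all genes did. At D6, 0 of all genes passed in either direction, and 845 (6.38%) had an unadjusted p under 0.05. The 4 members among these were lower, Top2a (log2 change -0.85, adjusted p = 0.547 by edgeR), Ube2c (-0.71), Cdc20 (-0.67) and Cdk6 (-1.23). DESeq2 called Top2a (adjusted p = 0.0399), with 0.717% of all genes lower. The difference between the states was called for 1 of all genes (0.00755%) and for 0 members, of which 1 (Ccnd2) had an unadjusted p under 0.05, as did 5.599% of all genes.

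After 15 h of labeling, the T>C conversion rate, or conversions over covered T positions, had a median over all genes of 1.29% at D0 and 4.27% at D6, and at D6 of 5.04% over the 40 members with a value in both states. The label left after 9 h of chase, as a share of the rate at 0 h, ranged over these members from 1.04% to 78.9% at D0, and 29 of the 40 lay below the median of 17.2% over 8565 genes. At D6 it ranged from 1.08% to 83.5%, and 19 of the 40 lay below the median of 11.4% over 8822 genes. These counts have no test, since the members share their libraries.

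Top2a was the only member past the threshold in the test of label left, which divides conversions by the rate over all 3′ UTRs of the library. Background was not subtracted from that rate, whose mean at D0 was 0.415% after 9 h of chase and 0.171% without 4sU. At D0 the rate of Top2a was 1.19%, 1.37% and 1.59% at 0 h and 0.124%, 0.0374% and 0.0547% after 9 h, from 60112 to 318046 covered T positions per library. No library at 9 h came near those at 0 h, and 5.22% ± 3.33 (SD, n = 3) of the rate was left, or 2.83% after subtraction of its background of 0.0340%, and 3.33% without replicate 34. Relative to all 3′ UTRs its log2 change was -2.48 (standard error 0.592, adjusted p = 0.0337 by edgeR over 9155 genes), where 0.218% of genes were lower and 0.175% higher, and the median gene was at -0.61. At D6 its rate was 5.70%, 5.75% and 4.75% at 0 h and 0.340%, 0.551% and 0.706% after 9 h, from 23672 to 65213 covered T positions. There 9.86% ± 3.41 (SD, n = 3) was left, and the log2 change of -0.92 (standard error 0.566, adjusted p = 0.461) did not pass, with a median gene at -0.67. The difference between the states was 1.56 (standard error 0.798, adjusted p = 0.542 by edgeR) and did not pass.

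The call for Top2a at D0 was not kept under 7 of 15 alternatives, and its adjusted p ranged from 2.39e-06 to 0.275. Divided by the rate of the median gene in each library, the log2 change was -2.06 (adjusted p = 0.156), and as a slope over the hours of the methods it was -2.04 (adjusted p = 0.238). It was also lost without replicate 25, 26 or 27 at 0 h or replicate 35 or 36 at 9 h. The 3′ UTR of Top2a (507 bases) holds the pentamer ATTTA, the core of AU-rich elements that are known to shorten the life of mRNAs, at 2 positions on the strand of the gene. Of 1368 3′ UTRs of 405 to 608 bases, 49.6% hold at least 1 and 21.2% at least 2. The stretches around positions 401 and 434 of the 3′ UTR, from the reference transcript of the gene, are shown with the pentamer in capitals.
Top2a, position 401: ctgttgtctcttATTTAagtgctgttatca
Top2a, position 434: tcttttgtaaatATTTAatatgtctgtctg

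**Figure D4:**
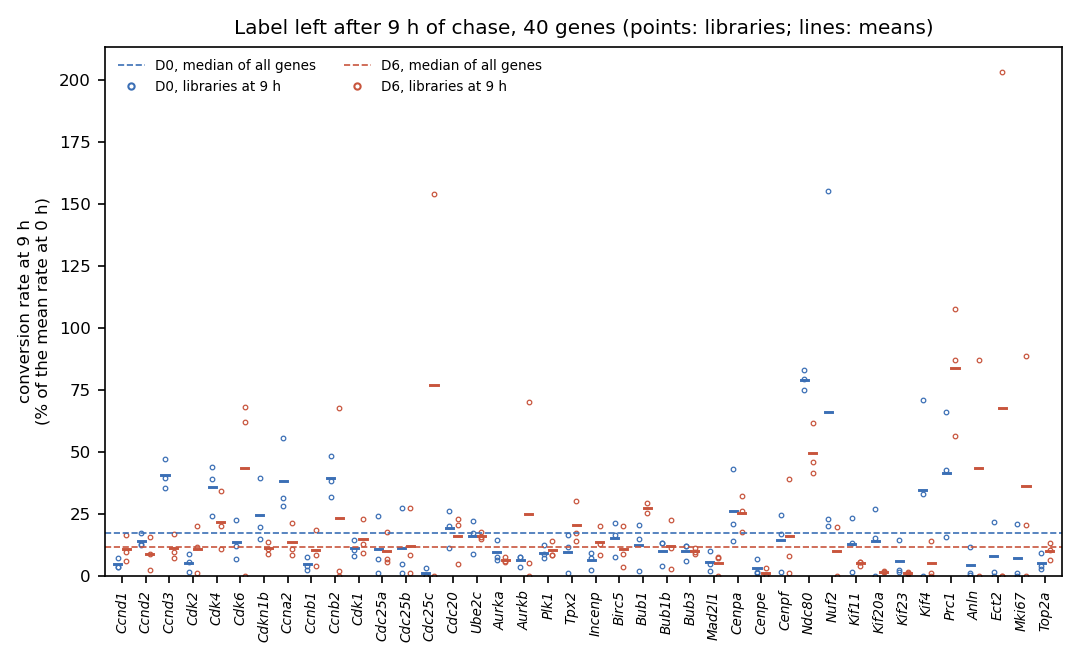
Conversion rate after 9 h of chase as a percentage of the mean rate of the gene at 0 h, for 40 genes at D0 (blue) and D6 (red), with points for single libraries, short lines for means and dashed lines for the medians of all genes, 17.2% and 11.4%. Top2a, Ccnd1 and Ccnb1 lie low at D0, and Ccnd3 and Cdk4 lie above the median of all genes at D0.

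The 3 D-type cyclin mRNAs also differed in the label they kept at D0. For Ccnd1, an mRNA known as short-lived, 4.81% ± 2.15 (SD, n = 3) of the rate at 0 h was left after 9 h at D0, for Ccnd2 13.98% ± 2.66 (SD, n = 3) and for Ccnd3 40.6% ± 5.85 (SD, n = 3). The rates of Ccnd1 at 0 h were 1.02%, 3.08% and 0.689%, and those at 9 h were 0.116%, 0.0559% and 0.0577%. Without the library at 3.08%, replicate 26, the share left was 8.97%. Those of Ccnd3 were 0.940%, 0.975% and 0.885% at 0 h and 0.332%, 0.439% and 0.368% at 9 h. In these rates all libraries of Ccnd3 at 9 h lay above all those of Ccnd1 and Ccnd2, but the difference between genes was not tested. At D6 the 3 shares were 10.6% ± 5.24 for Ccnd1, 8.86% ± 6.76 for Ccnd2 and 11.2% ± 5.16 for Ccnd3 (SD, n = 3 each), within each other's spread, and that of Ccnd2 was 5.41% without replicate 18. After subtraction of its background of 0.255%, the share for Ccnd3 at D6 was 5.35%. The change between states relative to all 3′ UTRs did not pass for any of them (log2 1.75 for Ccnd1, adjusted p = 0.64, and -1.28 for Ccnd3, adjusted p = 0.919), and Ccnd3 had a standard error of 1.55.

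Over the other members, 4 had an unadjusted p under 0.05 at D0, all lower, namely Bub3, Ccnd1, Ccnb1 and Cenpe. With Top2a these are 5 of 41 members, where 16.1% of all genes had such a p. At D6, 0 of the 41 tested passed with edgeR, where 0.153% of genes were higher and 0.0437% lower, and 3 of 41 (Kif20a, Kif23 and Cenpe) had an unadjusted p under 0.05, as did 14.96% of all genes. Cenpe, with -3.24 at D0 and -4.02 at D6, was in both sets. Its D0 rates at 0 h were scattered, at 0.917%, 4.81% and 2.76% on 2389 to 9102 covered T positions. At D6 after 9 h its rates were 0.155%, 0% and 0.0192% on 2035 to 5800 positions. Of the label in Ccnb1, D0 cells kept 4.55% ± 2.60 and D6 cells 10.3% ± 7.34 (SD, n = 3 each), or 6.29% without replicate 17. The difference between the states was called for 0 members and 1 of all genes (0.0109%), and 0 of 41 members had an unadjusted p under 0.05, where 9.30% of all genes did. Its median over 41 members was 0.60, against -0.07 over all genes, and 30 of the 41 lay above the median gene.

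Conversions were also found without 4sU. After the background was subtracted, the share left at D0 was lower by over 1.5 times for 18 of 40 members and 34.2% of all genes, and at D6 for 8 of 40 and 24.8%. Birc5 went from 15.1% to 2.79% at D0, Cdk2 from 5.25% to 1.72% and Plk1 from 9.33% to 4.20%. The all-gene medians became 9.97% at D0 and 8.83% at D6, with 30 and 16 of the 40 members below them. The background rate was over 0.5% for 3 of 41 members at D0 and 5 at D6, against 9.18% and 9.20% of all genes, and its median was 0.0526% over members against 0.0211% over all genes at D0, and 0.0721% against 0.0208% at D6. Ndc80 had 3.49% at D0 and 3.63% at D6, Ccna2 0.996% and 0.823%, and Prc1 1.32% and 0.472%. The share left after 9 h at D0 was 78.9% for Ndc80 and 38.2% for Ccna2, and 10.1% and 3.74% after the background was subtracted. For Prc1 at D6, 83.5% was left before and 81.1% after subtraction.

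Cdk6 carried little label at D6. After 15 h its rate was 1.15%, 1.14% and 2.26% in the 3 D0 libraries and 0.0850%, 0% and 0.0741% in the 3 D6 libraries, although these received the higher dose. The D6 values rest on 2353, 292 and 1350 covered T positions against 13359 to 20561 at D0, and the median of all genes at D6 was 4.27%. In other D6 libraries it reached 3.19%, so that replicates of 1 time point differed by more than the mean rate. The share of label left for Cdk6 at D6, 43.3% in the counts and plot over 40 genes, rests on these rates.

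**Figure D5:**
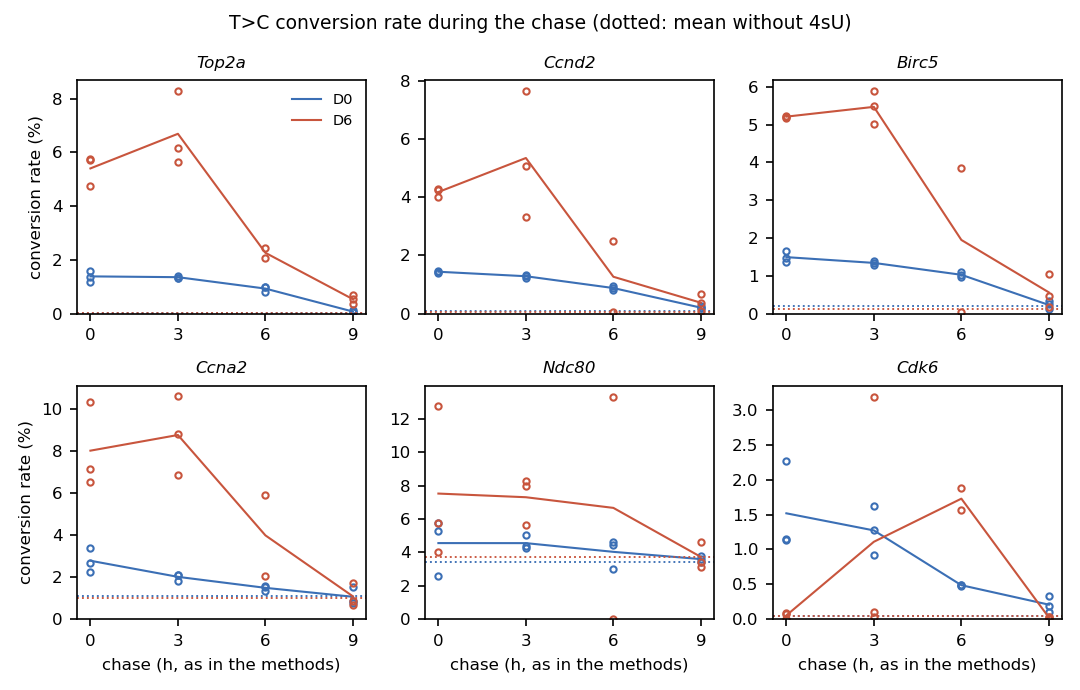
Conversion rate of 6 genes over the catabolic assay, in percent, against hours of chase as in the methods, at D0 (blue) and D6 (red), with points for libraries, lines through the means and dotted lines for the mean rate without 4sU. Top2a, Ccnd2 and Birc5 fall toward the background, Ndc80 has a high background, and Cdk6 at D6 is near 0 at 0 h.

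In the anabolic assay, uptake at 9 h was set against the rate at 15 h, and edgeR called 0 of 9155 genes at D0, at D6 and for the difference, with 414, 445 and 550 genes at an unadjusted p under 0.05. Among the members, 1 had such a p at D0 (Ttk) and 0 at D6, but the rate of Ttk was 0 in all 3 D0 libraries at 15 h, so that its value is no measure of uptake. The median share was 98.2% over the members and 93.7% over all genes at D0, and 80.9% and 70.96% at D6. For Top2a, D0 cells reached 103% ± 12.6 and D6 cells 67.4% ± 12.1 (SD, n = 3 each).

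Decay half-lives were fitted as in the methods, and R squared exceeded 0.6 for 13 of 41 members at D0 and 8 at D6, against 14.9% and 16.8% of all genes. The D0 median was 299.7 min and the D6 median 299.6 min, over genes that mostly differ between the states, and those of all genes were 281 and 221 min. In both states 3 genes had one, all from the mitotic kinases and passenger complex. From D0 to D6 the values were, for Plk1, 299.7 min (standard error 46.0) and 214 min (standard error 64.7), for Tpx2 322 min (standard error 64.2) and 233 min (standard error 56.8), and for Birc5 399.7 min (standard error 76.2) and 324 min (standard error 102). All 3 were shorter at D6, by less than 2 standard errors of either value. Over the first interval the rate over all 3′ UTRs did not decline. Its mean was 1.42% at 0 h and 1.41% at the next point at D0, and 4.63% and 4.67% at D6. Whether that point lay at 3 h, as in the methods, or at 1 h, as in the labels, was not tested. With the hours of the labels more members had a half-life, 23 at D0 and 16 at D6. The rates of Top2a at that point were 1.34%, 1.33% and 1.39% in D0 cells, within the range at 0 h. In D6 cells they were 5.64%, 8.28% and 6.16%, where 1 lay within and 2 above the range at 0 h. At D0 only, Top2a had 375 min (standard error 93.6), Ccnd2 365 min (standard error 60.6) and Ccna2 392 min (standard error 46.6), or 186 min (standard error 35.6) after the background was subtracted. At D6 only, Ccnd1 had 355 min (standard error 100.4) and Cdk1 275 min (standard error 75.1).

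At 0 and 9 h the labels and the methods do not differ. From these hours alone, 34.8% of all genes had a half-life at D0 and 50.6% at D6. Of 41 members, 29 had one at D0, 28 at D6 and 23 in both. The D0 median was 169 min and the D6 median 168 min, close to the 181 and 169 min of all genes. In the same order of states, Top2a then had 127 min (standard error 45.2) and 162 min (standard error 28.5), and Plk1 158 min (standard error 21.9) and 164 min (standard error 34.9). Ccnd3 had 416 min (standard error 31.5) and 171 min (standard error 100.3). Tpx2 had 160.2 min (standard error 51.9) and 235 min (standard error 23.8), and Birc5 198 min (standard error 29.8) and 168 min (standard error 22.0). With the hours of the labels, 11 of 11 members with a value in both states were shorter at D6, with 180.1 min (standard error 18.1) and 102 min (standard error 39.5) for Plk1, 202 min (standard error 35.6) and 102 min (standard error 33.3) for Tpx2, and 257 min (standard error 25.9) and 191 min (standard error 59.1) for Birc5. Of these 3 genes, Plk1 and Tpx2 thus changed direction with 0 and 9 h alone, and Birc5 kept it in all 3 sets of hours. From 0 and 9 h, 14 of the 23 members with both values were shorter at D6. The share of all genes that were shorter was not computed for any set of hours, so these counts cannot be set against one. The median of all genes was itself shorter at D6 with the hours of the methods (281 and 221 min) and from 0 and 9 h.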

How the data were processed

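The authors mapped the reads of 47 QuantSeq 3′ libraries to mm10 with SLAMdunk 0.3.3, masked called polymorphisms and counted T>C conversions over 3′ UTR intervals. The deposited files hold, per interval, raw counts of reads, covered T positions and conversions, used here, and 2 columns the authors derived from them and that were not used, the fraction of T positions converted and CPM. The intervals carry RefSeq names. Reads have no molecular identifiers, and the files count 0 reads as multimapped. Counts were summed per transcript, and 1 transcript per gene, the one with most reads, was tested.

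Reads were tested in R 4.3.3 with edgeR 4.0.16 (TMM, filterByExpr, quasi-likelihood test, Benjamini-Hochberg adjustment at 0.05 over 13253 genes), in a model of 16 groups over all libraries. Conversions were tested likewise with an offset for covered T positions and for the rate over all 3′ UTRs of the library, over 9155 genes whose mean covered T positions reached 1000, which left out Kif20b. Standard errors are the log2 change over the square root of F. Share of label left has the SD of the rates at 9 h only. Half-lives were least squares fits of an exponential, kept with R squared over 0.6 and up to 5000 min, and with a fitted curve of at least 0.001 at the first time point after 0 h. Alternatives used DESeq2 1.42.0, limma 3.58.1, other filters, scalings and hours, and each library left out. Python 3.11.15, numpy 2.4.6, scipy 1.17.1, pandas 2.3.3 and matplotlib 3.10.9 were used for the rest. The statistics were tested on simulated data. P-values measure the spread between libraries.

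Members, lists, tests and named genes were chosen with earlier results of these data known. Libraries are given for 8 genes of each branch of the cycle (Ccnd1, Ccnd2, Ccnd3, Cdkn1b, Cdk1, Ccnb1, Mki67 and Top2a), for up to 3 largest rises and 5 largest falls past the threshold without 4sU and for members called in a conversion test. Aurka and Cdc20 were added after their values were seen. The 3′ UTRs of Ccnd3, Ccna2, Cdc20 and Kif20a overlap those of Bysl, Exosc9, Elovl1 and Cdc23 on the opposite strand. The pentamer was counted in GENCODE vM21 transcripts, which matched the 3′ UTR of 26 members in length and T content.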

Additional observations from a re-analysis of the deposited data

How the results depend on the processing

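Of the values under alternatives, 6091 kept their direction and side of the threshold (or stayed within 1.5 times for counts), 134 passed newly, 33 no longer passed and 2 reversed. Counts that moved are grouped here. The cause was not tested. Without 4sU, the count of members lower at D6 was 6, and it was 32 over 8 points, 29 over 7 points, 22 over the anabolic and 24 over the catabolic points, 9 with DESeq2, and 5 to 6 with single libraries left out (1 to 2 higher). For reads after 15 h of 4sU against none at D6, DESeq2 called 1 member lower (0.717% of all genes). For label left at D0, members lower were 1, but 3 with DESeq2 (4.10% of all genes), 0 divided by the rate of the median gene, 17 not divided by the library rate (18.6% of all genes), 0 as a slope over the hours of the methods and 0 to 1 with single libraries left out. At D6 they were 2 with DESeq2 (3.72% of all genes) and 22 not divided by the library rate (34.3% of all genes). Half-lives (D0, D6, both) numbered 23, 16 and 11 with the hours of the labels, 29, 28 and 23 from 0 and 9 h, 39, 38 and 37 without a minimum of R squared, and 11 to 16, 4 to 13 and 1 to 5 with single libraries left out. Of all genes, 14.9% at D0 and 16.8% at D6 had one with the fit of the methods, and 34.8% and 50.6% from 0 and 9 h. For the other settings no share over all genes was computed, so these counts cannot be set against one. Ndc80 reversed to -1.47 for reads over 8 points, and Cdk4 to -2.21 for label left at D6 not divided by the library rate. The calls for Ccnd2, Ccnd3, Cdk6, Cdkn1b, Plk1 and Birc5 without 4sU were kept in all 14 alternatives, and those for Ccnd1 in 13 and Incenp in 11. In the average over 8 points, the calls for Aurkb, Bub1, Ccnb2, Cdk2, Cenpa, Cenpf, Mad2l1, Ndc80, Ttk, Anln, Ect2, Kif11 and Kif23 were lost under at least 1 of 6 alternatives, most often from the anabolic or the catabolic points alone. No paired analysis was possible because each library has a replicate number of its own. Depth was lower at D6, and 17 of 23 D6 and 3 of 24 D0 libraries held 0 reads for Kif20b. The part of depth in this was not tested.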
